A study of Mus musculus with 9 samples.

Results

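The mirtron-range miRNAs are the mature mouse miRNAs numbered miR-6896 to miR-7094, a block of late registry entries that are mostly candidates for splicing-derived miRNAs. The range was set by number and not by a measured value, though with earlier results of these data known. In all, 375 such names had a read in at least 1 of 9 libraries, which is 23.3% of the 1607 known mouse miRNA names with a read. The 375 names came from 197 hairpins, with 190 on the 3p arm and 185 on the 5p arm.

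The libraries are small RNA sequencing of whole embryonic mouse kidney, taken on embryonic day 16.5, in 3 groups of 3. The control libraries were wild type, the transgene libraries carried a DROSHA-E1147K transgene, and the knockout libraries were labelled DROSHA knockout. The study asked how these changes of DROSHA alter miRNA levels in the embryonic kidney. The promoter or Cre line, the cells in which DROSHA was changed, and whether a group's libraries stand for different animals are not given in the sources used here, and Drosha mRNA was not measured.

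Most miRNAs need a pair of cuts. DROSHA, with its partner DGCR8, frees a hairpin from the primary transcript in the nucleus, and DICER then cuts the hairpin to the mature duplex in the cytoplasm. A mirtron skips the first cut: its hairpin is a short intron, released by splicing and debranching and then passed to DICER. In a tailed mirtron only 1 end of the hairpin is a splice site, and the remaining stretch of intron is trimmed off.

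The sequences below are mature forms that the text describes in most detail, chosen among the abundant members and those with small p-values. They are RefSeq sequences on GRCm38.p6 (the mm10 assembly), 5′ to 3′, with the seed (bases 2 to 8) in capitals:
miR-6958-3p: uCAGCUGCcucuugccaucacag
miR-6944-3p: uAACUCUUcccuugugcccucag
miR-7070-3p: cAGGCUCUccuucccuccag
miR-7018-3p: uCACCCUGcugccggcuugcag
miR-6988-3p: uGACCUCUguaucuccugccag
miR-6934-5p: uUGGUGGAgacagcaagggugg
miR-6960-5p: cAGGAUGAgaagaguuuggcug
miR-6969-3p: uGUUGUUCccaucucugcag
These 8 names have 8 different seeds. The seed of miR-7018-3p is shared with miR-7023-3p and miR-7068-3p, that of miR-6960-5p with miR-7093-5p and, outside the range, miR-8104, and that of miR-7070-3p with miR-344g-3p. Of the 375 names with reads, 329 matched the RefSeq table, which holds 353 names in the number range. Those 353 names carry 324 different seeds, with at most 3 names on any 1 seed, so the range is not a seed family. Of them, 54 share a seed with another name in the range and 55 with a miRNA outside it.

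The hairpins below show the 2 layouts, with the mature arms in capitals. In Mir6958 and Mir6944 the hairpin is the whole intron, opening with GU and closing with AG, while Mir6988 and Mir6969 reach a splice site only at their 3′ end:
Mir6958 hairpin: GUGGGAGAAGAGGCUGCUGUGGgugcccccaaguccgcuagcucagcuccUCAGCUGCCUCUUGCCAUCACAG
Mir6944 hairpin: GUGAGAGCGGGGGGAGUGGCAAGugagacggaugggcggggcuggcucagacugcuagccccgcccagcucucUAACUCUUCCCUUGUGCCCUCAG
Mir6988 hairpin: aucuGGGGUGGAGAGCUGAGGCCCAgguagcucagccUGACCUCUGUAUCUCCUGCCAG
Mir6969 hairpin: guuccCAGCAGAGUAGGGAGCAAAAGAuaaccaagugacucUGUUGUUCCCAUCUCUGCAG
Mir6958 fills a 73-nt intron of Dennd6b at chr15:89185465-89185537, minus strand. Mir6944 fills a 96-nt intron of Dbn1, the gene of the actin-binding protein drebrin, at chr13:55477681-55477776, minus strand. Mir6988 lies at chr19:6051334-6051392, plus strand, at the end of an 82-nt intron of Syvn1, an endoplasmic reticulum ubiquitin ligase, with 27 nt of intron before its 5p arm. Mir6969 lies at chr17:28558441-28558501, minus strand, at the end of a 320-nt intron of Clps, which encodes the pancreatic enzyme colipase, with 264 nt of intron before its 5p arm.

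The splice layout was set beside the label. It is annotation only, and does not show whether these RNAs are made without DROSHA. An arm at an acceptor also takes its end bases and composition from there, so these are not separate evidence. All 177 of the RefSeq 3p arms in the range, and 175 of 176 5p arms, lay in an annotated GENCODE intron on their own strand. The last base of the 3p arm was the last base of an intron for 136 of 177 (76.8%), against 22 of 532 (4.14%) 3p arms of other miRNAs, and it lay within 2 nt of an acceptor for 165 (93.2%) against 36 (6.77%). The 5p arm began at a splice donor in 15 of 176 (8.52%), against 9 of 521 (1.73%). The 3p arms ended in CAG, the usual end of an intron, in 67.8% against 5.45%, and held 71.9% ± 7.94 (SD, n = 177) C and U against 53.8% ± 13.4 (SD, n = 532). C and U are the bases of the tract that precedes an acceptor. The 5p arms were rich in G, at 44.2% ± 8.91 (SD, n = 176) against 29.2% ± 11.05 (SD, n = 521).

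**Figure D1:**
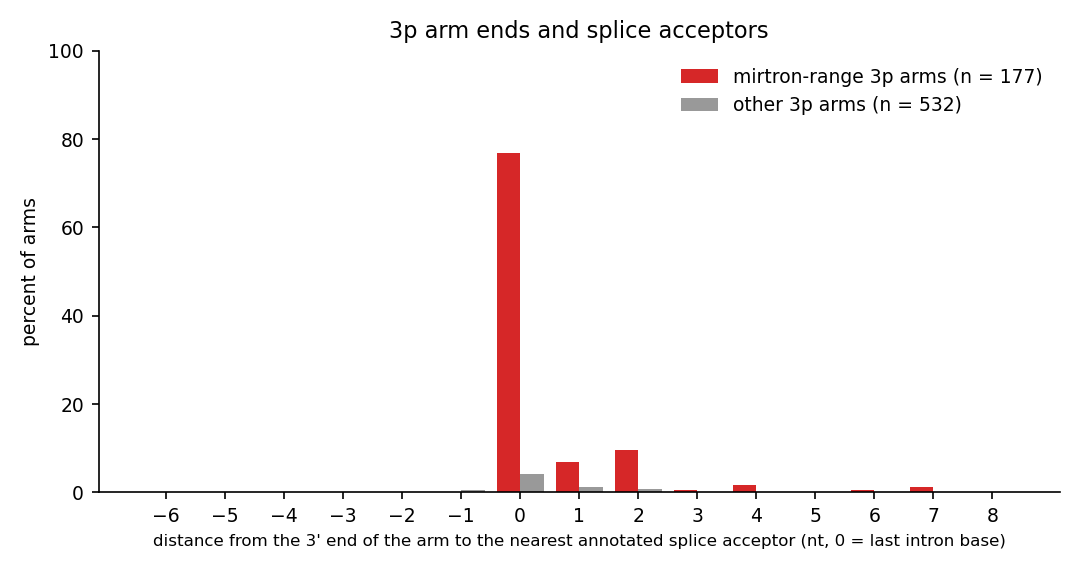
Percent of 3p arms (bars) by the distance in nt from their 3′ end to the nearest annotated splice acceptor, for 177 mirtron-range arms and 532 arms of other miRNAs; distances outside the axis are not drawn. The bar at 0, an arm that ends on the last base of an intron, holds 76.8% of the mirtron-range arms and 4.14% of the others.

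Of 185 hairpins with RefSeq loci, 10 had both ends at splice sites, 4 only the 5′ end and 8 neither, and 8 had no 3p locus. The remaining 155 had the 3′ end at an acceptor and no 5p arm known to start at a donor. Of these, 146 had a 5p locus in the intron, and the 5′ end of the others was not assessed. Introns of the both-ends hairpins were 73 to 96 nt long. The hairpins with only the 3′ end at an acceptor lay in introns with a median of 550 nt. Those with a 5p locus had a median of 483 nt of intron before the 5p arm. The range is therefore mostly tailed by annotation, with few whole-intron mirtrons. Full-length copies were searched in annotated transcripts only, not in the rest of the genome, and 53 names matched. miR-7025-5p matched Pdgfra, the gene whose intron holds its 3p arm. The other 52 matched only transcripts of their host gene, such as a Dennd6b transcript that retains the miR-6958 intron. Reads from such a transcript and from a mirtron cannot be told apart by sequence.

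The libraries held 24350500 to 34896599 reads of known miRNAs. Unscaled levels are in RPM, taken over the known-miRNA reads of the library, and CPM is the same unit with totals scaled by TMM, a normalization that centres most miRNAs on no change. Against the controls, unscaled totals moved the median log2 fold change of all 955 tested miRNAs to 0.18 in the transgene and 0.19 in the knockout comparison, against -0.04 and -0.03 with TMM. The reads of mature miRNAs made up 80.9% to 81.9% of all counted reads in the controls, 76.9% to 79.1% in the transgene and 74.7% to 77.02% in the knockout libraries. In whole kidneys, fewer cells of a type and less RNA per cell cannot be told apart.

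Mirtron-range miRNAs were scarce in these kidneys. Only 35 names averaged 1 CPM or more, and only 1, miR-6958-3p, averaged 10 CPM or more. A read was seen in all 9 libraries for 187 names and in 1 library for 32, and 28 names rested on 1 read in all. In each library a count of 0 allows up to 0.0860 to 0.123 RPM, for counting error only.

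The reads pooled over all 375 names gave 123 (4286 reads), 136 (3709 reads) and 124 (3649 reads) RPM in the 3 controls. The transgene libraries gave 120 (3643), 142 (4072) and 182 (4696). The knockout libraries gave 206 (5465), 147 (3588) and 140 (3766). The lowest knockout library lay just above the highest control, while the transgene libraries spanned the whole control range. Exact 95% Clopper-Pearson intervals were 119 to 127 for control 1 and 132 to 141 for control 2, against 136 to 145 for knockout 3, so that highest control and lowest knockout were within counting error of each other.

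The pooled mean was 128 ± 7.40 (SD, n = 3) RPM in the controls, 148 ± 31.2 (SD, n = 3) in the transgene and 164 ± 35.8 (SD, n = 3) in the knockout libraries. That is a knockout to control ratio of 1.29 and a transgene to control ratio of 1.16. With TMM-scaled totals the ratios were 1.10 and 0.989, and the groups overlapped. Leaving out knockout 1, the library with the highest value, gave a log2 ratio to control of 0.17, against 0.36 with it. The difference in pooled reads was thus no larger than the spread between libraries once totals were scaled. The 323 names numbered miR-1000 to miR-6895 were also higher on unscaled totals, with 4288 ± 497 (SD, n = 3) RPM in the controls and 5704 ± 551 (SD, n = 3) in the knockout libraries, a ratio of 1.33.

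**Figure D2:**
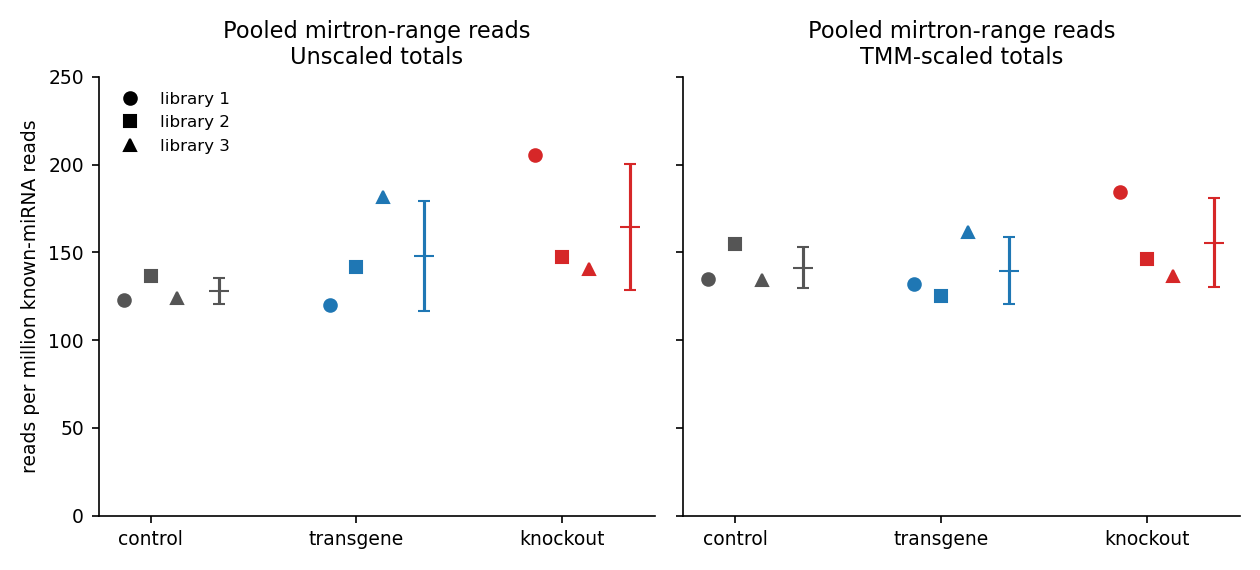
Reads pooled over the 375 mirtron-range names in each library (points), in RPM with unscaled totals on the left and TMM-scaled totals on the right; bars are mean ± SD of 3 libraries. Knockout 1 is the highest library in both panels, and the knockout and control groups overlap on the right but not on the left.

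The number of names with a read was 291, 282 and 293 in the controls, 281, 295 and 303 in the transgene libraries, and 305, 267 and 295 in the knockout libraries. Thinned to 24350500 miRNA reads, the smallest library, the numbers were 272, 276 and 283, then 270, 286 and 300, then 301, 267 and 290. The groups overlapped: the knockout and transgene means lay 8.89 and 8.25 names above the controls, less than the SDs of 17.1 and 15.1 names within those groups. Of the 375 names, 2 had a read in all knockout libraries and in no control, beside 5 of all 1607 known names (0.311%), and 2 in all transgene libraries and in no control, beside 7 of 1607 (0.436%). These counts are too small to set the members apart. None was seen in all controls and missing from all libraries of either DROSHA group, beside 1 of all known names (0.0622%) for the knockout and 0 (0.0%) for the transgene group.

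Most reads came from the 3p arm, which made up 68.1%, 70.5% and 66.7% of mirtron-range reads in the controls, 67.0%, 68.0% and 72.6% in the transgene libraries, and 75.0%, 71.0% and 73.1% in the knockout libraries. Other miRNAs had 28.2% to 34.8% of their reads on 3p arms, so the arm bias is the reverse of theirs. The knockout share lay above the control share in every library, by 4.61 percentage points between means. The 3p share of all other miRNAs was also higher there, at 32.9% ± 1.86 (SD, n = 3) against 29.1% ± 0.787 (SD, n = 3) in the controls. Counted by hairpin the bias was weaker: of 180 hairpins with at least 10 reads, 100 had more 3p and 79 more 5p reads, with 44 at or above 90% 3p and 29 at or below 10%. The arms of miR-6988 had 1718 and 1 reads (3p and 5p) and those of miR-6960 had 8 and 604.

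The 10 hairpins that fill a whole intron, within 2 nt at each end, held 22.5% of mirtron-range reads under 17 names. Their pooled reads were 23.6, 27.1 and 22.4 RPM in the controls, 24.6, 30.1 and 36.1 in the transgene libraries, and 60.6, 35.9 and 38.9 in the knockout libraries. All knockout libraries lay above all controls, and with TMM scaling too (35.5 to 54.4 CPM against 24.2 to 30.8). The log2 ratio of knockout to control means was 0.66 with TMM scaling. On unscaled totals it was 0.89, and 0.62 without knockout 1. Transgene libraries overlapped the controls, at a log2 ratio of 0.31 on unscaled totals. The 10 hairpins shared these reads unevenly: miR-6974 had 1 read in all and miR-6973b had 4. From controls to knockout libraries the TMM-scaled mean of the sum went from 26.9 to 42.5 CPM. The largest rises among tested names were those of miR-6944-3p (6.39 to 12.6 CPM) and miR-7070-3p (1.62 to 5.85 CPM).

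Hairpins with only an acceptor end, with reads under 289 names, held 62.5% of the reads, and their groups overlapped on both scalings. They gave 81.6, 90.6 and 81.7 RPM in the controls, 78.1, 90.6 and 118 in the transgene libraries, and 113, 87.9 and 81.0 in the knockout libraries. The both-ends hairpins thus took 27.2% ± 2.61 (SD, n = 3) of mirtron-range reads in the knockout libraries, against 19.0% ± 0.959 (SD, n = 3) in the controls and 20.5% ± 0.700 (SD, n = 3) in the transgene libraries. This share does not depend on the scaling of totals. The grouping by splice layout was made after the data had been seen, so these values carry no test.

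**Figure D3:**
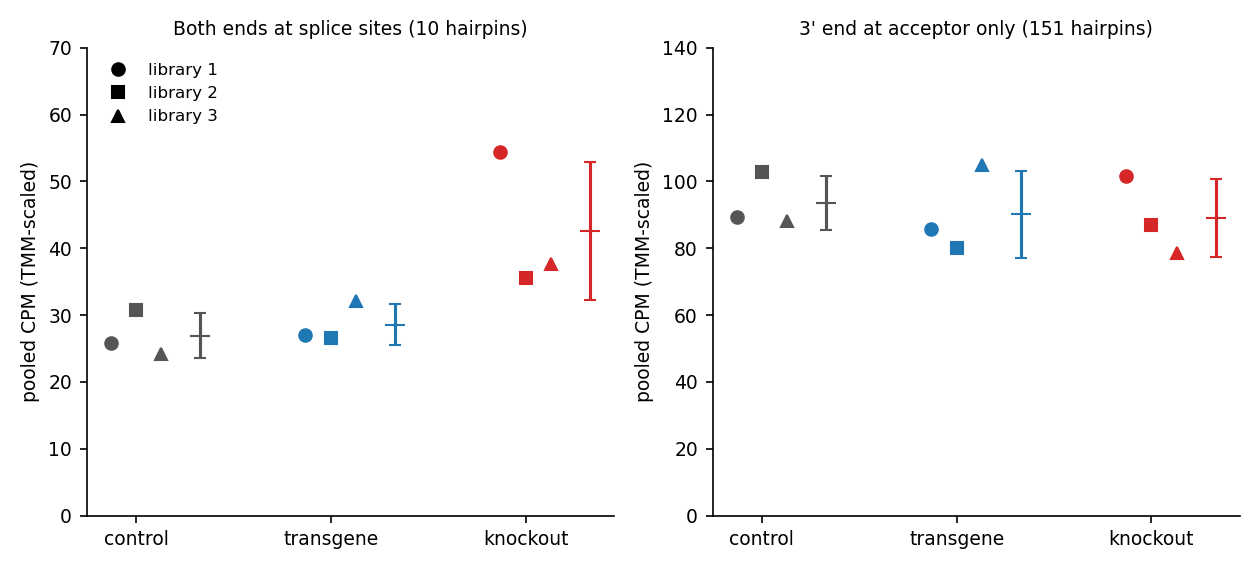
Pooled CPM (TMM-scaled) in each library (points; bars are mean ± SD of 3 libraries) for the 10 hairpins with both ends at splice sites, on the left, and those with only the 3′ end at an acceptor, on the right; the 2 vertical axes differ. Knockout libraries lie between 35.5 and 54.4 CPM on the left, above the 24.2 to 30.8 CPM of the controls, and overlap the controls on the right.

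Each name was tested with edgeR's quasi-likelihood F test in a fit over all 955 miRNAs with enough reads, and called at a Benjamini-Hochberg adjusted p under 0.05. Of the 375 names, 104 (27.7%) had enough reads, 62 of them 3p arms, against 851 of 1232 (69.1%) other names. Against the controls, edgeR called 0 of 104 in the knockout (background 0.0% of all miRNAs tested) and 0 of 104 in the transgene libraries (background 0.0%). At an unadjusted p under 0.05 there were 7 in the knockout comparison, where the background was 25.7%, and 2 in the transgene comparison, where it was 8.8%. Knockout against transgene gave 0 calls (background 0.105%) and 5 at an unadjusted p under 0.05 (background 7.02%). In that order these were 6.73%, 1.92% and 4.81% of the tested members, smaller shares than over all miRNAs. The last did not hold without knockout 3, at 9.48% of members beside 8.54%. Members had few reads, and the part of depth in these shares was not tested.

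In knockout against control, DESeq2 called 3 of the 62 members to which it gave an adjusted p (4.84%), beside 12.3% of all such miRNAs. It called 0 members in the other comparisons, beside 0.126% of all miRNAs for transgene against control and 0.189% for knockout against transgene. Those 3 were miR-6934-5p, miR-7070-3p and miR-6944-3p. The members' log2 fold changes ran from -2.15 (miR-6934-5p) to 1.85 (miR-7070-3p) in knockout against control and from -1.46 (miR-7042-5p) to 1.10 (miR-6936-3p) in transgene against control. Their median was 0.12 for knockout against control and -0.08 for transgene against control, against -0.03 and -0.04 over all miRNAs tested. The members' median standard error was 0.42, against 0.38 over all miRNAs tested. Of the 104, 63 (60.6%) were above 0 in the knockout comparison, beside 48.9% of all miRNAs tested, and 42 (40.4%) in the transgene comparison, beside 46.7%. With unscaled totals these were 79 (76.0%, beside 62.4%) and 68 (65.4%, beside 66.2%). Both comparisons use the same controls. For knockout against transgene with TMM the members' median was 0.19, against 0.05 over all miRNAs tested. There, 71 of the 104 (68.3%) were above 0, beside 53.1%. Without knockout 1 the share was 54.5%, beside 47.7%.

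**Figure D4:**
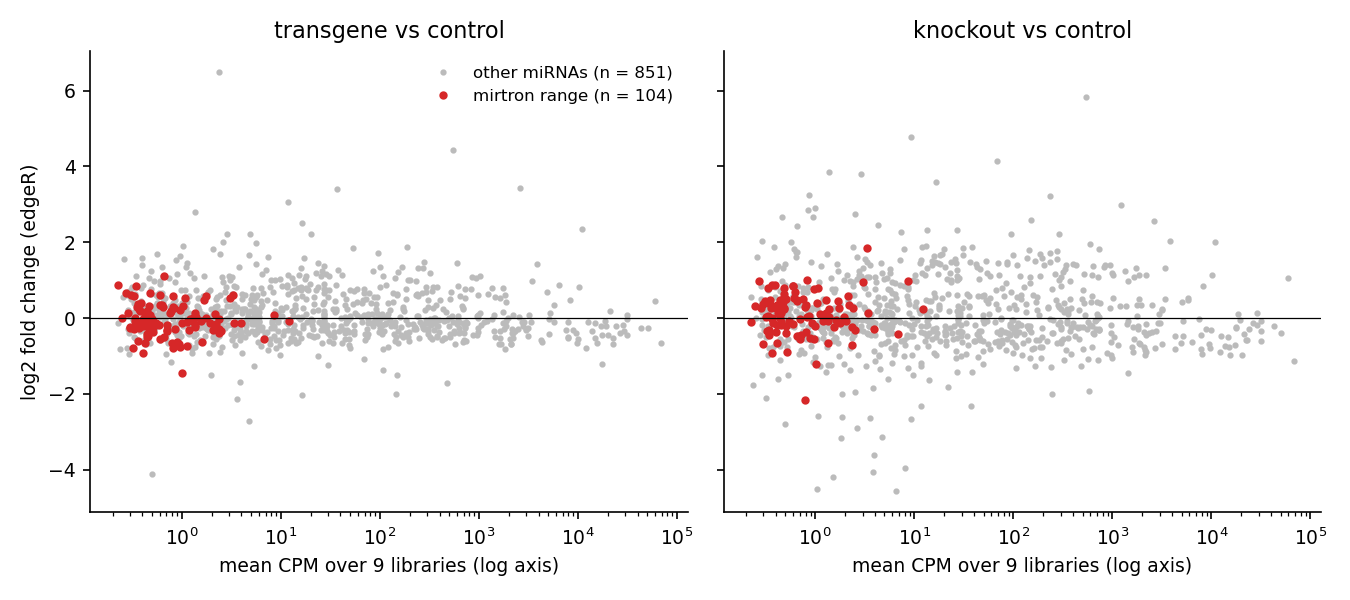
Log2 fold change of each tested miRNA against its mean CPM over 9 libraries (log axis), for transgene and knockout against control; red points are the 104 mirtron-range names and grey points the 851 others. The mirtron-range names crowd the low-abundance end around a log2 fold change of 0.

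Groups that did not overlap were no more frequent among members than among all miRNAs tested. In knockout against control this held for 10 of the 104 (background 28.5%), and in transgene against control for 15 (background 24.0%). In knockout against transgene it held for 8 (background 10.4%).

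The most abundant member, miR-6958-3p, had 344, 356 and 252 reads in the controls, 334, 303 and 336 in the transgene libraries and 473, 385 and 272 in the knockout libraries. Its groups overlapped, with control libraries at 11.6 ± 2.87 CPM and knockout at 13.8 ± 3.45 CPM (SD, n = 3 each). Its log2 fold change for knockout against control was 0.25 ± 0.30 (SE; edgeR adjusted p = 0.635).

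miR-6944-3p, from Dbn1, had 213, 153 and 166 reads in the controls, 175, 189 and 237 in the transgene libraries and 470, 190 and 392 in the knockout libraries. Controls were tight at 6.39 ± 0.292 CPM (SD, n = 3), and every knockout library lay above them, at 12.6 ± 4.29 CPM (SD, n = 3). The log2 fold change was 0.98 ± 0.31 (SE; edgeR adjusted p = 0.128, DESeq2 adjusted p = 0.0460). Against the transgene libraries it was 0.90 ± 0.31 (SE; edgeR adjusted p = 0.643), and those groups overlapped.

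miR-7070-3p fills the 3′ end of an 86-nt intron of Fbxw9, an F-box gene, at chr8:85062152-85062171, plus strand. It had 55, 38 and 42 reads in the controls, 32, 93 and 98 in the transgene libraries and 304, 61 and 133 in the knockout libraries. Knockout libraries were all above the controls but spread widely, at 5.85 ± 3.99 CPM against 1.62 ± 0.0962 CPM (SD, n = 3 each). The log2 fold change was 1.85 ± 0.56 (SE; edgeR adjusted p = 0.109, DESeq2 adjusted p = 0.0267), and 1.19 without knockout 1. Its partner miR-7070-5p, with 190 reads in all, stood at 0.51 ± 0.37 (SE; edgeR adjusted p = 0.420).

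miR-7018-3p comes from an 85-nt intron of Hspg2, the gene of the basement membrane proteoglycan perlecan, at chr4:137538349-137538370, plus strand. Its reads were 61, 50 and 62 in the controls, 63, 105 and 105 in the transgene libraries and 171, 82 and 84 in the knockout libraries. In CPM both DROSHA groups lay above the controls without overlap, but the transgene group only just. Its lowest library, transgene 1 with 63 reads, was almost level with control 3 with 62 reads. On unscaled totals transgene 1 lay below control 3, so those groups overlapped. The log2 fold changes were 0.95 ± 0.33 for knockout (SE; edgeR adjusted p = 0.147) and 0.54 ± 0.33 for transgene (SE; edgeR adjusted p = 0.591), so neither passed. All 8 tested names of the both-ends hairpins had a log2 fold change above 0 for knockout against control, from 0.12 for miR-7091-5p to 1.85 for miR-7070-3p. Beside this, 60.6% of tested members and 48.9% of all miRNAs tested were above 0. The 8 are not separate hairpins, as miR-7070 and miR-7091 each gave both arms. The value of miR-7091-5p was smaller than its SE of 0.26. Of the 8, 3 did not overlap the controls, beside 28.5% of all miRNAs tested.

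Other members went down in value, again short of the threshold in edgeR. miR-6934-5p lies in an intron of Tbc1d16, which encodes a Rab GTPase-activating protein, at chr11:119154111-119154132, minus strand. It had 26, 43 and 33 reads in the controls, 20, 28 and 24 in the transgene libraries and 4, 5 and 14 in the knockout libraries. The knockout libraries lay below all others, at 0.282 ± 0.198 CPM against 1.27 ± 0.490 in the controls and 0.804 ± 0.0712 in the transgene libraries (SD, n = 3 each). The log2 fold change against control was -2.15 ± 0.50 (SE; edgeR adjusted p = 0.108, DESeq2 adjusted p = 0.0104), and -2.78 without knockout 3. Against transgene it was -1.50 ± 0.50 (SE; edgeR adjusted p = 0.643).

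miR-6960-5p, from an intron of the spindle-associated gene Troap at chr15:99080810-99080831, plus strand, had 109, 64 and 79 reads in the controls, 57, 79 and 67 in the transgene libraries and 54, 45 and 50 in the knockout libraries. In CPM the 3 groups were ordered without overlap, at 3.0 ± 0.387, 2.27 ± 0.186 and 1.82 ± 0.0111 (SD, n = 3 each). The log2 fold change was -0.72 ± 0.24 for knockout against control (SE; edgeR adjusted p = 0.131) and -0.40 ± 0.23 for transgene against control (SE; edgeR adjusted p = 0.577). miR-6988-3p, the third most abundant member, had 248, 244 and 199 reads in the controls, 208, 181 and 124 in the transgene libraries and 178, 147 and 189 in the knockout libraries. Its knockout libraries lay below the controls, at a log2 fold change of -0.42 ± 0.29 (SE; edgeR adjusted p = 0.395), and its transgene libraries overlapped them, at -0.54 ± 0.29 (SE; edgeR adjusted p = 0.550).

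2 further members had unadjusted p-values under 0.05 in knockout against control. miR-6994-5p, from an intron of the mRNA decay gene Patl1, had 10 to 19 reads in the controls, 22 to 28 in the transgene and 25 to 39 in the knockout libraries, at a log2 fold change of 1.01 ± 0.28 (SE; edgeR adjusted p = 0.108). miR-7024-5p, from an intron of Nelfa, a subunit of the transcription pausing factor NELF, had 37 to 58, 37 to 49 and 23 to 32 reads in the same order, at -0.67 ± 0.26 (SE; edgeR adjusted p = 0.178). In the transgene comparison the smallest p-values belonged to miR-6936-3p (Sirt7 intron; log2 fold change 1.10), miR-7042-5p (-1.46), miR-7008-3p (Prkci intron; -0.79) and miR-6965-3p (Ccnf intron; -0.77), with edgeR adjusted p from 0.529 to 0.530. In knockout against transgene, miR-6977-3p (Ptprs intron; 1.40) and miR-6914-3p (Ankrd52 intron; 0.79) were beside miR-6934-5p and miR-6944-3p, with edgeR adjusted p from 0.643 to 0.652.

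**Figure D5:**
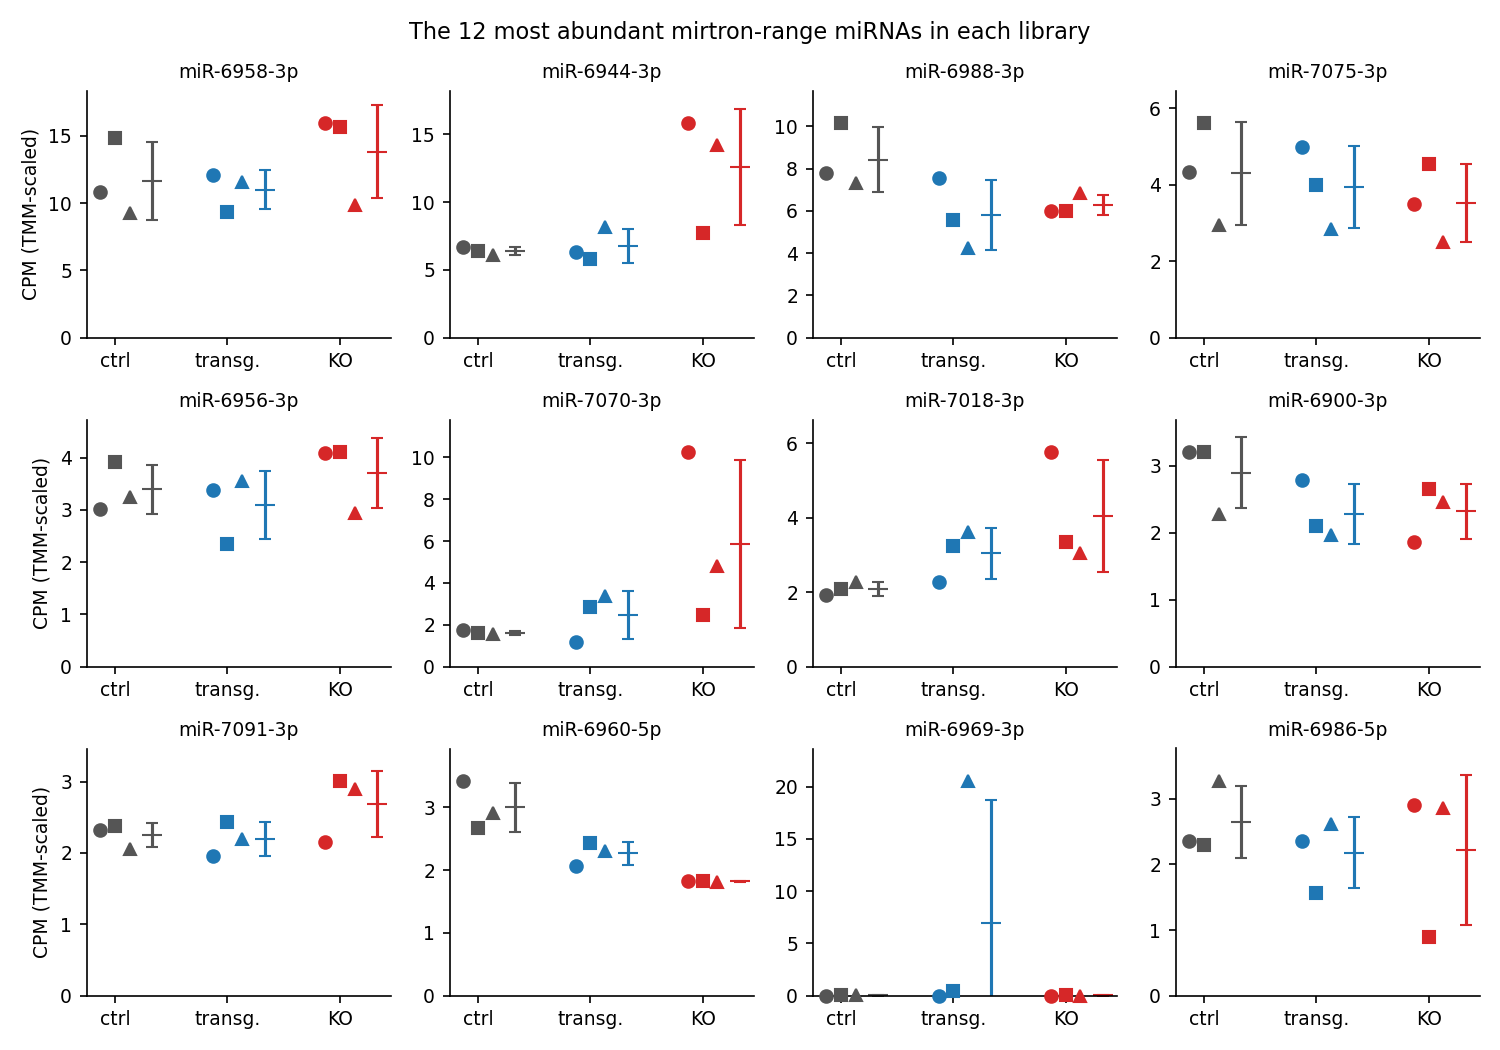
CPM (TMM-scaled) of the 12 most abundant mirtron-range names in each library (points; circle, square and triangle are libraries 1, 2 and 3; bars are mean ± SD of 3 libraries, and the bar of miR-6969-3p is cut off at 0), each panel with its own axis from 0. miR-6944-3p, miR-7070-3p and miR-7018-3p have all knockout libraries above all controls, and miR-6969-3p is high in transgene 3 alone.

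The other abundant members, miR-7075-3p (Terf2 intron), miR-6900-3p (Ndufa10), miR-7091-3p (Dnase1l1), miR-6986-5p (Rce1) and miR-6956-3p, averaged 2.35 to 3.93 CPM. Their groups overlapped in all 3 comparisons. Of the 15 hairpins with both arms tested, the arms of miR-6967 (Kifc5b) had similar totals of 396 and 452 reads (5p and 3p), while those of miR-7091 had 323 and 602.

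One member stood out in a single library. miR-6969-3p, from the colipase gene Clps, had 0, 1 and 3 reads in the controls, 0, 14 and 598 in the transgene libraries and 0, 2 and 0 in the knockout libraries. Transgene 3 alone was high, at 20.6 CPM against at most 0.431 in any other library, and it made miR-6969-3p the most abundant member there. Its 5p arm had 4 reads in transgene 2, 18 in transgene 3 and none elsewhere. Neither arm had reads in enough libraries to be tested. Without both arms, the pooled transgene mean was 140 ± 18.9 (SD, n = 3) RPM, and its log2 ratio to control went from 0.21 to 0.13.

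Markers of pancreas and liver were read beside it. miR-802-5p, known from pancreas and liver, was 284 CPM in transgene 3 and 0.869 to 13.3 CPM in the other 8 libraries. miR-375-3p, abundant in endocrine cells, was 9143 CPM in transgene 3 and 329 to 4856 CPM in the others, and the hepatocyte miR-122-5p was 700 CPM there and 368 to 19085 CPM in the others. All 3 of 3 listed markers were detected in every library, and their sum was 1180 to 12197 CPM in the controls, 4925 to 21600 in the transgene and 1107 to 11180 in the knockout libraries. Markers of acinar cells, the cells that make colipase, were near 0: miR-216a-5p, miR-216b-5p and miR-217-5p summed to 0.929 CPM in transgene 3, within the 0.435 to 2.48 CPM of the other libraries. The part of other tissue in the miR-6969 reads was not tested.

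Kidney markers were miR-10a-5p, miR-192-5p, miR-194-5p, miR-204-5p, miR-30a-5p and miR-200b-3p, all 6 detected in every library. Being miRNAs, they cannot settle kidney identity where DROSHA is changed. Each of the 6 was lower in all knockout libraries than in all controls. In the transgene libraries miR-192-5p and miR-30a-5p overlapped the controls and the others were lower. Their sum was 94853 to 118061 CPM in the controls, 54033 to 90729 in the transgene and 29618 to 63947 in the knockout libraries. Most of it was miR-10a-5p, at 85945 to 108043, 46858 to 83590 and 25505 to 57713 CPM in that order. The sum of 3 of 3 erythroid markers (miR-451a, miR-144-3p and miR-486a-5p) was 21365 to 52269, 27187 to 79972 and 71631 to 112127 CPM in the same order. This sum was above the controls in all knockout libraries, but miR-451a made up most of it, at 69494 to 109699 CPM there. In the knockout libraries miR-144-3p and miR-486a-5p each overlapped the controls. The sum of 4 of 4 striated muscle markers reached 10059 CPM in knockout 3, against 217 to 1988 in the other 8 libraries. The part of these shifts in the knockout values of mirtron-range names was not tested.

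A list of miRNAs known to be made without DROSHA, or by other unusual routes, was read for comparison. It held 13 names with reads, of the mirtrons miR-877, miR-1224, miR-1981 and miR-702, the capped hairpins miR-320 and miR-484, and miR-1839. edgeR called 0 of the 11 tested in each comparison, as did DESeq2, and at an unadjusted p under 0.05 there was 1 in each knockout comparison, beside 25.7% of all miRNAs tested against the controls and 7.02% against the transgene libraries, and 0 in transgene against control, beside 8.8%. The log2 fold changes had medians of 0.08 for knockout and -0.01 for transgene against control. miR-702-3p had 116, 116 and 132 reads in the controls, 86, 157 and 180 in the transgene libraries and 385, 129 and 211 in the knockout libraries, at a log2 fold change of 0.96 ± 0.40 (SE; edgeR adjusted p = 0.182). miR-877-3p had 156, 156 and 138 reads in the controls, 81, 86 and 144 in the transgene libraries and 368, 166 and 193 in the knockout libraries, at 0.67 ± 0.36 (SE; edgeR adjusted p = 0.290). Against the transgene libraries the knockout value of miR-877-3p was 1.31 ± 0.36 (SE; edgeR adjusted p = 0.567). Against the controls, the 5p partners of miR-702-3p and miR-877-3p stood at -0.18 ± 0.35 and -0.55 ± 0.33 (SE; edgeR adjusted p = 0.785 and 0.342), on the other side of 0. The 32 names of 3p arms outside the range that end within 2 nt of an acceptor summed to 59.1 ± 8.45 RPM in the controls, 61.6 ± 6.94 in the transgene and 84.2 ± 15.0 in the knockout libraries (SD, n = 3 each). On these unscaled totals the knockout libraries did not overlap either other group. With TMM scaling they were 72.7 to 90.9 CPM against 58.4 to 74.4 CPM in the controls, which overlapped, and 55.7 to 60.2 CPM in the transgene libraries, which did not.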

How the data were processed

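The authors' deposited files, 1 per library, hold whole-number read counts per small RNA name and a TPM column, which per the file headers and the values is the count scaled to the header total; the deposited TPM was not used. Per the submitters' processing notes, CASAVA 1.8 and Bowtie2 were used, with build mm10. The sources used here do not say how a read matching several annotations was assigned. Groups came from the sample titles. Counts of the 1607 known mouse miRNA names were analysed, with the few hairpin-class reads of a name added (139 of 36874 member reads). edgeR 4.0.16 in R 4.3.3 was used with TMM (factors 0.882 to 1.13), filterByExpr and a quasi-likelihood F test over all 9 libraries with Benjamini-Hochberg adjustment over 955 miRNAs (common biological coefficient of variation 0.489); DESeq2 1.42.0 was an alternative. The fit was tested on simulated data with changes larger than that of any tested member here, so it does not give the power for smaller changes. Standard errors are the log2 fold change divided by the square root of F. Pooled reads and numbers of names got no test. Loci and sequences came from RefSeq (GRCm38.p6) and introns from GENCODE vM21 of the same assembly, with a tolerance of 2 nt for splice sites.

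Members were named if among the 12 with the highest mean CPM, past the threshold in any comparison, among the 4 smallest p-values in a comparison, or on a hairpin with both arms tested, 44 names in all. 41 of them had a RefSeq sequence. The members and lists were chosen with earlier results of these data known, and the acinar marker list and the grouping by splice layout were added after seeing the data. The labels do not say that a group's libraries come from different animals; if they do not, the p-values reflect technical spread only. Reads carry no molecular identifiers, so intervals and limits cover counting error only.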

Additional observations from a re-analysis of the deposited data

How the results depend on the processing

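No member was called by edgeR in any of the 3 comparisons under RLE size factors, unscaled or all-read library sizes, no filter, robust fitting, only the 2 groups compared, mature reads alone, or with any 1 library left out. A filter at 10 CPM left 1 member to test. DESeq2 called 3 members in knockout against control, and the cause was not tested. Without knockout 1, edgeR called 48 of all miRNAs in knockout against control and no member (smallest adjusted p 0.0762). Members with an unadjusted p under 0.05 numbered 1 to 4, 7 to 16 and 2 to 11 with 1 library left out, for transgene against control, knockout against control and knockout against transgene; the shares over all miRNAs in those fits were 3.71% to 15.4%, 15.7% to 26.3% and 5.64% to 9.29%. The 16 and the 11 came without knockout 3, where they were 13.8% and 9.48% of members beside 18.1% and 8.54% of all miRNAs, and the 2 without transgene 2.

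With TMM-scaled totals the log2 ratio of pooled member reads was -0.016 for transgene and 0.14 for knockout against control. That of both-ends hairpins was 0.085 for transgene, and that of acceptor-only hairpins -0.051 for transgene and -0.070 for knockout. The scaling itself lowers them, as TMM factors of 5 of the 6 DROSHA libraries were above those of all controls. On unscaled totals with 1 library left out, log2 ratios of pooled reads were 0.036 to 0.34 (transgene against control), 0.17 to 0.47 (knockout against control) and -0.040 to 0.33 (knockout against transgene, negative without knockout 1). Those of both-ends hairpins were 0.17 to 0.44, 0.62 to 1.03 and 0.30 to 0.72. Differences in detected names were 0.975 to 16.1, 1.47 to 18.3 and -7.16 to 10.02. Over the 44 named members, 143 of 2316 alternative log2 fold changes changed sign; none of these was for miR-6934-5p, miR-6944-3p, miR-7018-3p or miR-7070-3p in knockout against control.

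Replicate numbers did not pair the libraries (correlations of same-numbered libraries -0.302 to 0.102). With a replicate block, edgeR called 0 members in each comparison, with 1, 7 and 4 at an unadjusted p under 0.05, beside 6.81%, 19.8% and 4.71% of all miRNAs. Depth limits these values: 92 of 375 names had fewer than 10 reads over all 9 libraries.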
